A study of Solanum lycopersicum with 4 samples.

Results

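The genes described here are 5 tomato genes of the route that turns fatty acids into fruit aroma volatiles, chosen by their gene IDs from the 34675 rows of the deposited table. They are LOXA (Solyc08g014000.2, chromosome 8), LOXB (Solyc01g099190.2, chromosome 1), LOXC (Solyc01g006540.2, chromosome 1), HPL (Solyc07g049690.2, chromosome 7) and ADH2 (Solyc06g059740.2, chromosome 6). Each ID was found in 1 row, and all 5 rows passed the filter of a mean of at least 1 RPKM (reads scaled to gene length in kilobases and to 1000000 library reads). RNA was sequenced from fruit of tomato plants of the variety Ailsa Craig. The 2 transgenic libraries carry the citrus gene CsMYBF1, a MYB transcription factor gene, and come from line D7 (replicate 1) and line C2 (replicate 2). The 2 other libraries are from wild-type fruit (WT). Each transgenic line is thus 1 library, so a difference between the lines has no replicate check. The labels list no further treatment, and the level of the citrus gene is not analysed here. They do not give the promoter in front of CsMYBF1, the ripening stage of the fruit, or whether the wild-type samples were separate plants. The scatter between the wild-type libraries may therefore be technical, while that between the transgenic libraries includes any difference between the lines. The limma p-values given here rest on this scatter, with the variance of each gene drawn toward that of other genes. They reach no further than these particular samples.

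Lipoxygenases add oxygen to linoleic and linolenic acid and give fatty acid hydroperoxides. Hydroperoxide lyase cleaves such hydroperoxides into short aldehydes, and alcohol dehydrogenase reduces the aldehydes to alcohols. Both the aldehydes and the alcohols belong to the scent of ripe tomato and of crushed green tissue. LOXC is the chloroplast lipoxygenase that feeds this route in tomato fruit, whereas LOXA and LOXB belong to the other main class of plant lipoxygenases, which places the oxygen at a different carbon.

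Each library held between 12916160 and 21403774 recovered reads. Over the whole table, 3179 of 16876 genes tested were called higher and 352 lower in the CsMYBF1 libraries, and the log2 fold change of all genes had a median of 0.49. Long genes lay higher in both lines: the 1277 tested genes of 2500 to 3499 bases had a median log2(RPKM + 1) difference from the WT mean of 1.42 for line D7 and 1.43 for line C2. The names of the 5 genes come from the list that defined them. A RefSeq gene table of another assembly holds all 5 names, each on the chromosome that its Solyc ID gives, but it ties no name to a Solyc ID. Lipoxygenases form a gene family, and how reads that fit several genes were counted is not given in the sources used here, so reads may have been split between relatives. Because the fruit was sequenced in bulk, fewer cells of a type and less RNA per cell cannot be told apart.

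The 3 lipoxygenase genes had their highest level in line C2. In line D7, LOXB and LOXC lay near wild type and LOXA was 1.34-fold above the WT mean. HPL and ADH2 were at most 1.20-fold apart between the lines. The question addressed was whether these genes differ between CsMYBF1 and wild-type fruit, and 0 of the 5 genes passed the test in either direction (limma on log2(RPKM + 1), adjusted p below 0.05). Over all genes tested, 18.8% were called higher and 2.09% lower. At an unadjusted p below 0.05 the number in this fit was also 0 of 5, against 34.1% higher and 7.35% lower over all genes. With voom (limma) on the recovered reads, 0 of 5 passed the adjusted threshold, where 20.9% of all genes were called higher and 1.97% lower. The 5 log2 fold changes had a median of 0.62, and that of all genes tested was 0.49.

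**Figure D1:**
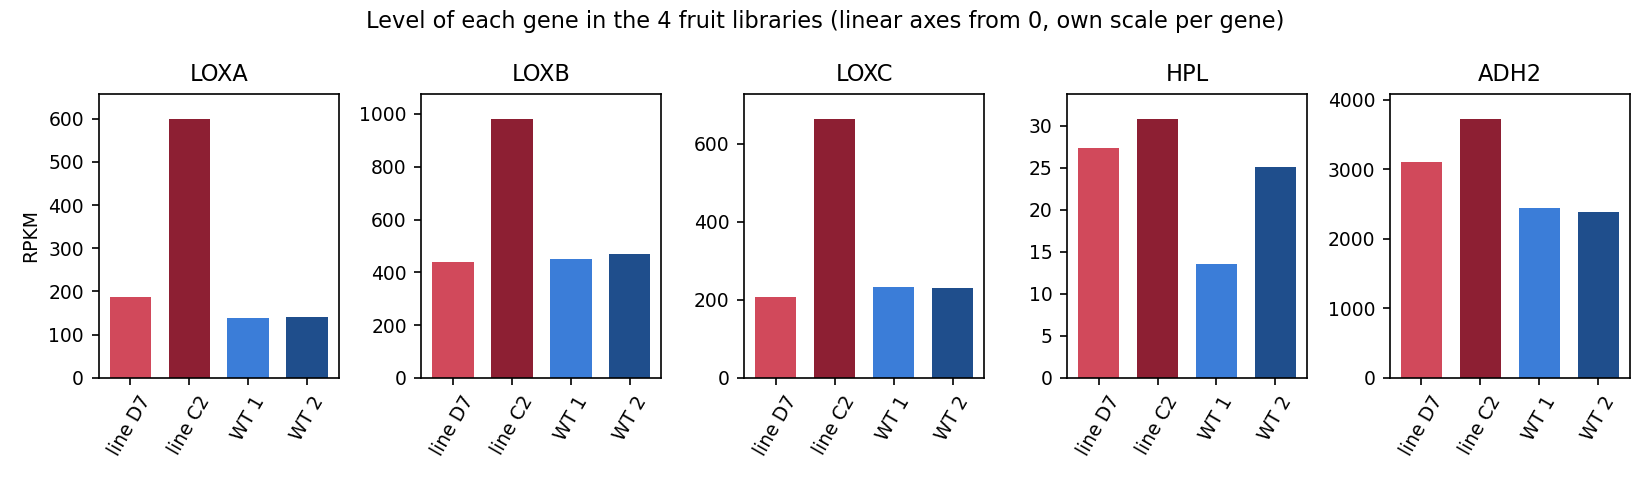
Level in RPKM (linear axes from 0, with a scale of its own for each gene) of the 5 genes in the library of line D7, the library of line C2 and the 2 WT libraries. Each bar is 1 library. The bar of line C2 is the tallest in all 5 panels, and for LOXA, LOXB and LOXC it is at least 2.23-fold the bar of line D7.

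LOXA was measured at 187 RPKM in the D7 library and 598 RPKM in the C2 library, and the WT libraries held 139.8 and 140.0 RPKM. Both lines lay above both WT libraries, and line C2 lay far above line D7. The CsMYBF1 mean was 393 ± 291 RPKM and the WT mean 140 ± 0.123 RPKM (SD, n = 2 each). On the log2 scale the CsMYBF1 libraries were 1.25 ± 0.55 (standard error) above WT, which missed the threshold (limma, adjusted p = 0.14). Against the WT mean, LOXA was 1.34-fold in line D7 and 4.28-fold in line C2. The log2 difference was 2.09 without line D7 and 0.42 without line C2.

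LOXC, the lipoxygenase of the volatile route itself, had 208 RPKM in the library of line D7 and 663 RPKM in that of line C2. The WT libraries had 232 and 229 RPKM. Here the groups overlapped, because line D7 lay below both WT libraries and line C2 above both. The CsMYBF1 mean was 435 ± 322 RPKM and the WT mean 231 ± 1.9 RPKM (SD, n = 2 each). The log2 difference between the groups was 0.68 ± 0.55 (standard error; limma, adjusted p = 0.39). Against the WT mean, LOXC was 0.90-fold in line D7 and 2.87-fold in line C2. Without line D7 the log2 difference was 1.52, and without line C2 its sign turned, to -0.15.

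LOXB was the most abundant of the 3 lipoxygenase genes in every library. Line D7 gave 440 RPKM and line C2 gave 980 RPKM, whereas the WT libraries gave 449 and 468 RPKM. As for LOXC, line D7 lay just below both WT libraries and line C2 above both. The CsMYBF1 mean was 710 ± 382 RPKM and the WT mean 459 ± 12.9 RPKM (SD, n = 2 each), with a log2 difference of 0.52 ± 0.43 (standard error; limma, adjusted p = 0.40). Its fold over the WT mean in line C2, 2.14, was the smallest of the 3 genes. The log2 difference was 1.09 without line D7 and turned to -0.060 without line C2.

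HPL, the hydroperoxide lyase gene, was by far the least abundant of the 5. Its values were 27.4 RPKM for line D7 and 30.7 RPKM for line C2, and 13.6 and 25.1 RPKM for the WT libraries. Both lines lay above both WT libraries, but the gap to WT replicate 2 was small and the spread was in the wild type. The CsMYBF1 mean was 29.1 ± 2.37 RPKM and the WT mean 19.3 ± 8.15 RPKM (SD, n = 2 each). The log2 difference was 0.62 ± 0.37 (standard error; limma, adjusted p = 0.25). Without WT replicate 1 it was 0.20, and without WT replicate 2 it was 1.04, so the size of the difference rested on which WT library was used.

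ADH2, the alcohol dehydrogenase gene, was among the most abundant transcripts of the fruit. It reached 3107 RPKM for line D7 and 3717 RPKM for line C2, and 2449 and 2379 RPKM for the WT libraries. Both lines lay above both WT libraries. The CsMYBF1 mean was 3412 ± 431 RPKM and the WT mean 2414 ± 49.5 RPKM (SD, n = 2 each), with a log2 difference of 0.49 ± 0.31 (standard error; limma, adjusted p = 0.27). This equals the median of all genes tested to the second decimal. Among all rows of the table ordered by level, ADH2 had rank 12 in the D7 library and rank 10 in the C2 library, against ranks 33 and 38 in the WT libraries.

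Non-overlapping groups were found for 3 of the 5 genes, LOXA, HPL and ADH2, with both lines above both WT libraries in each case. Over all genes tested, 50.7% had both lines above both WT libraries, so a count of 3 in 5 lies near this background. The reverse, both lines below both WT libraries, was seen for 0 of the 5 genes and for 17.4% of all genes. LOXB and LOXC, 2 of the 5 genes, had line C2 above and line D7 below both WT libraries, an arrangement found for 1.42% of all genes tested. The opposite arrangement was found for 3.61% of all genes and for 0 of the 5.

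The difference between the lines was the main feature of the lipoxygenase genes. The ratio of line C2 to line D7 was 3.19 for LOXA, with an exact 95% interval of 3.12 to 3.28, and 3.19 for LOXC, with an interval of 3.12 to 3.27. For LOXB it was 2.23, with an interval of 2.19 to 2.27. These intervals compare the reads of 2 libraries and cover counting error only, since the protocol names no molecular identifiers and several reads may stem from 1 molecule. The same ratio was 1.12 for HPL (interval 1.02 to 1.24) and 1.20 for ADH2 (interval 1.18 to 1.21). Behind the ratios stood 8383 reads of LOXA, 20121 of LOXB and 9441 of LOXC in line D7, and 22718, 38020 and 25584 reads of these genes in line C2, so that counting error was small beside the difference.

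Few genes differed as much in this direction between the lines. On the log2(RPKM + 1) scale the difference of line C2 minus line D7 was 1.67 for both LOXA and LOXC and 1.15 for LOXB, where the median absolute difference of all genes tested was 0.31. Of the 16876 genes tested, 161 had a larger difference in this direction than LOXC, 162 a larger one than LOXA and 443 a larger one than LOXB. Line C2 was at least 2-fold above line D7 for 3 of the 5 genes and 5.53% of all genes, and at least 2-fold below it for 0 of the 5 and 9.57% of all genes. Line C2 was at least 2-fold above each of the other 3 libraries for 3 of the 5 genes, the 3 lipoxygenase genes, and for 2.57% of all genes tested. Other libraries stood out in this way about as often, with 2.61% of genes for line D7, 1.77% for WT replicate 1 and 3.69% for WT replicate 2. Among the 1624 genes whose mean reached 100 RPKM, 15 genes (0.924%) had this pattern, and the 3 lipoxygenase genes were among them. These counts describe the libraries, and the pattern was chosen after the values were seen.

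The wild-type libraries gave nearly equal values for the lipoxygenase genes and ADH2, but not for HPL. The ratio of WT replicate 2 to WT replicate 1 was 1.00 for LOXA, 1.04 for LOXB, 0.99 for LOXC and 0.97 for ADH2. For HPL it was 1.85, with an exact 95% counting interval of 1.65 to 2.08, from 641 reads in WT replicate 2 and 566 reads in the deeper WT replicate 1. The WT libraries were not alike in general: their median absolute log2(RPKM + 1) difference over all genes tested was 0.44, and 23.8% of the genes were at least 2-fold apart.

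**Figure D2:**
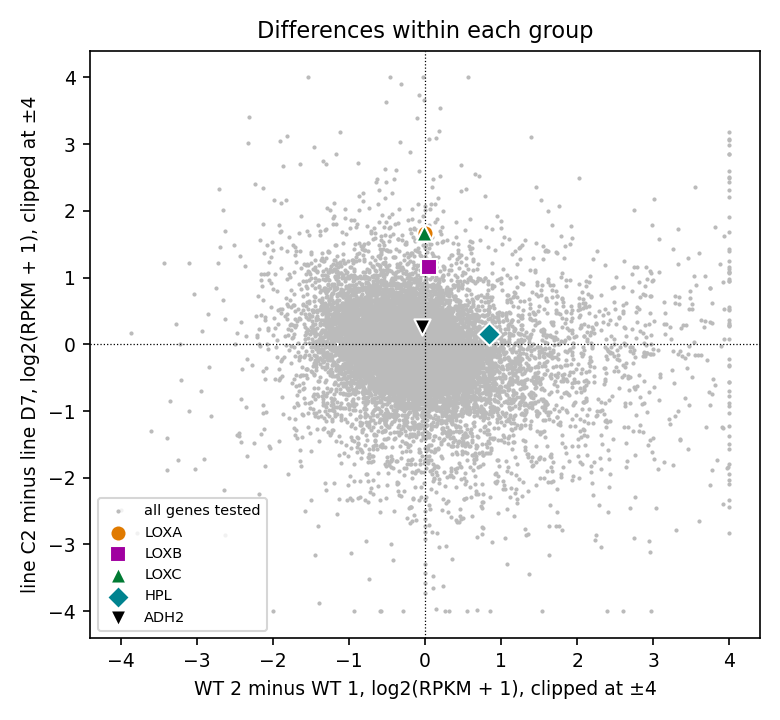
Difference in log2(RPKM + 1) between the lines (line C2 minus line D7, vertical axis) and between the wild-type libraries (WT 2 minus WT 1, horizontal axis) for all 16876 genes tested (grey) and the 5 genes (coloured), clipped at 4 in both directions. LOXA (1.67 on the vertical axis) lies under the marker of LOXC, LOXB follows at 1.15, and these lie near 0 on the horizontal axis, while HPL is shifted along the horizontal axis by 0.84.

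The 3 lipoxygenase genes summed to 835 RPKM for line D7 and 2241 RPKM for line C2, and to 821 and 837 RPKM for the WT libraries. In RPKM as deposited, line D7 lay between the WT libraries, and line C2 had 2.70 times the WT mean. The RPKM of all genes summed to less in the lines, 840841 for D7 and 818375 for C2, than in WT, 1.06485e+06 and 1.12154e+06. The lipoxygenase sums given here are not scaled to these totals. RPKM is per length, so the 3 genes can be set side by side within a library. LOXB made up 52.7% of the sum in line D7 and 43.7% in line C2, against 54.7% and 55.9% in the WT libraries. LOXA made up 22.4% in line D7 and 26.7% in line C2, against 17.0% and 16.7% in WT. The groups did not overlap for either share. For LOXC the shares were 24.9% in line D7 and 29.6% in line C2, against 28.3% and 27.4% in WT, with overlap. The CsMYBF1 mean minus the WT mean was 7.70 percentage points for LOXA, -7.09 for LOXB and -0.61 for LOXC. Leaving out line D7 gave -11.6 for LOXB and 1.75 for LOXC, and leaving out line C2 gave -2.60 for LOXB and -2.97 for LOXC. Without WT replicate 1 the LOXC difference was -0.18, and without WT replicate 2 it was -1.03. Exact two-sided permutation tests gave p = 0.333 for LOXA and for LOXB and p = 1 for LOXC, where 0.333 is the smallest value that 2 libraries against 2 allow.

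**Figure D3:**
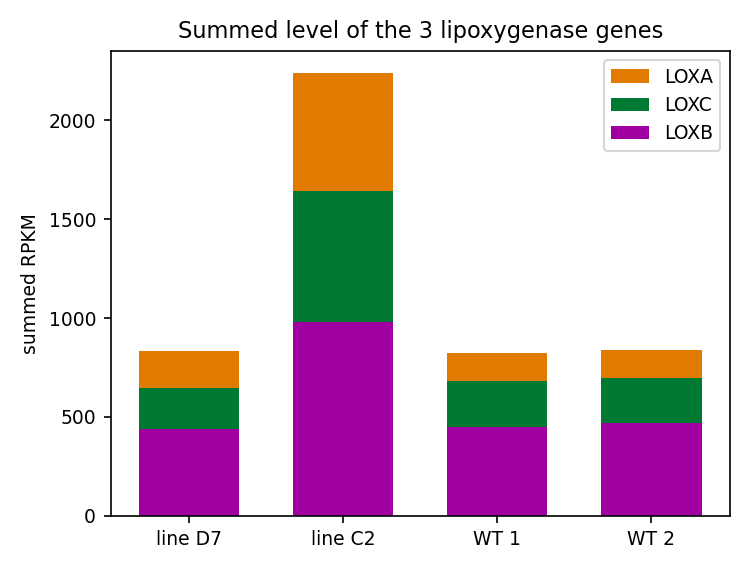
Summed RPKM of LOXA, LOXC and LOXB (stacked, linear axis from 0) in the library of line D7, the library of line C2 and the 2 WT libraries. The column of line C2 reaches 2241 RPKM, and the other 3 columns lie between 821 and 837 RPKM.

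The proportion of LOXA to LOXC separated the groups, although the level of both genes separated the lines. LOXA had 0.902 times the RPKM of LOXC in line D7 and likewise 0.902 times in line C2, against 0.602 and 0.610 times in the WT libraries. The lines were equal to the third decimal in this ratio, and both lay above both WT libraries (exact two-sided permutation test, p = 0.333, the smallest possible here). A ratio of this kind does not move with the scaling of a library, and the 2 genes have nearly the same recovered length, 2940 bases for LOXA and 2987 bases for LOXC. This ratio was singled out after the values were seen. No counting interval was computed for it, so how closely the lines agree was not tested.

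The level of the lipoxygenase genes relative to HPL and ADH2 differed among single libraries and not by group. The summed lipoxygenase level was 30.5 times that of HPL in line D7 and 72.9 times in line C2, against 60.6 and 33.4 times in the WT libraries. ADH2 stood at 3.72 times the summed lipoxygenase level in line D7 and at 1.66 times in line C2, against 2.98 and 2.84 times in WT. LOXC alone, the lipoxygenase of the volatile route, had 7.58 times the RPKM of HPL in line D7 and 21.6 times in line C2, against 17.1 and 9.15 times in WT. In each of these ratios the lines lay on either side of the WT libraries. Together the 5 genes took 0.724% of the recovered reads of line D7 and 1.24% of those of line C2, against 0.618% and 0.615% in WT. Of the summed RPKM of all genes they took 0.472% in line D7 and 0.732% in line C2, against 0.308% and 0.289% in WT.

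Gene length moved with the difference between the groups in these libraries, and its part in the values of the 5 genes was not tested beyond the values given here. LOXA, LOXB and LOXC have recovered lengths of 2940, 3005 and 2987 bases, and among the 1277 tested genes of 2500 to 3499 bases 55.3% were called higher and 0% lower. In line C2 the lipoxygenase genes lay on both sides of the median of that length class: LOXA was 0.66 above it on the log2(RPKM + 1) scale, LOXC 0.09 above it, and LOXB had a difference of -0.34 from it. In line D7 all 3 lay far below the median of the class, with differences of -0.999 for LOXA, -1.48 for LOXB and -1.57 for LOXC. Of the other genes of the class, 3.68% lay lower than LOXA in line D7, 0.705% lower than LOXB and 0.235% lower than LOXC. In line C2 the shares were 91.4%, 27.5% and 56.8% in the same order of genes.

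The same comparison was limited to the 34 genes of this length class whose mean reached 100 RPKM, a choice made after the values were seen. Their median difference from the WT mean was 1.07 in line D7 and 1.22 in line C2. In line D7, 1 of these genes lay lower than LOXC, 3 lower than LOXB and 5 lower than LOXA. In line C2, 22 lay lower than LOXC, 13 lower than LOXB and 32 lower than LOXA. For line C2 minus line D7, where these genes had a median of 0.11, 1 gene had a larger value than LOXC, 2 a larger one than LOXA and 3 a larger one than LOXB. The 34 genes include the 3 lipoxygenase genes, so each count takes in any other lipoxygenase gene on that side. LOXC is among the 2 genes above LOXA, and LOXC and LOXA are among the 3 above LOXB. The lipoxygenase genes therefore stood apart from most long, abundant genes in line D7, where LOXB and LOXC were close to wild type and LOXA 1.34-fold above it, while most such genes were farther above it.

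**Figure D4:**
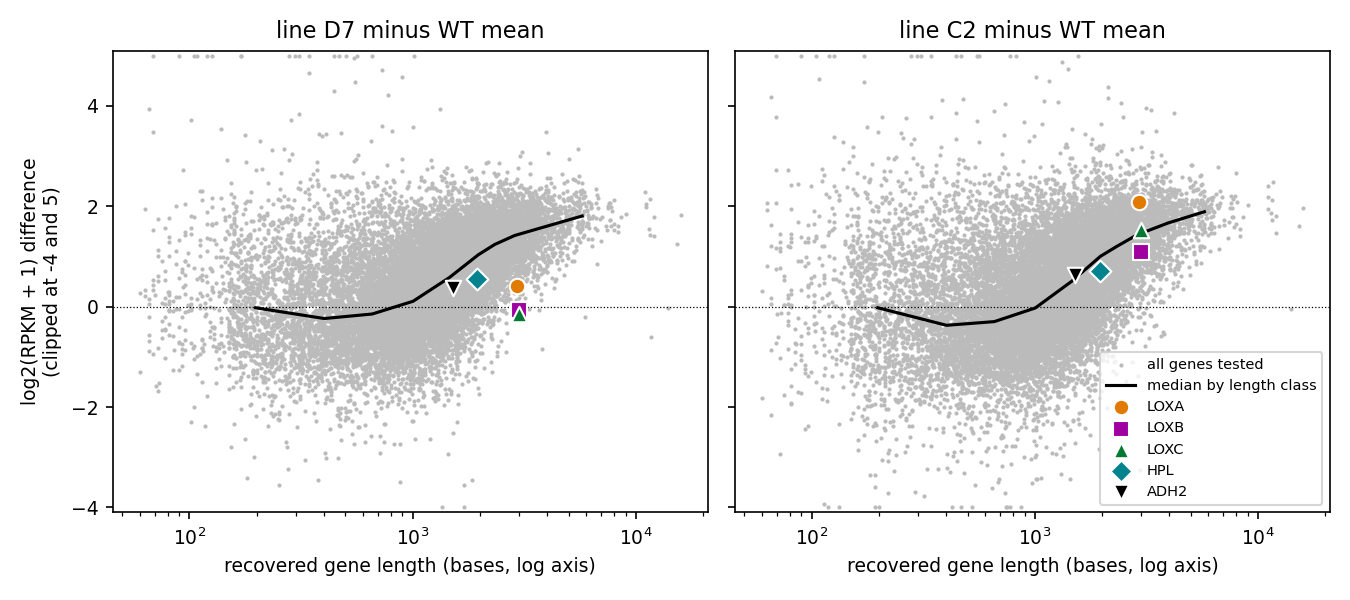
Difference in log2(RPKM + 1) from the WT mean (vertical axis, clipped at -4 and 5) against the recovered gene length in bases (log axis), for line D7 (left) and line C2 (right). Grey points are the genes tested, the black line joins the medians of length classes, and coloured markers are the 5 genes. In line D7 the lipoxygenase genes differ by -1.57 to -0.999 from the median of genes of 2500 to 3499 bases, and in line C2 they lie on both sides of it.

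In line D7, HPL and ADH2 lay nearer to the median of genes of their length than the lipoxygenase genes did. For the 1733 genes of 1800 to 2199 bases, the class of HPL with 1950 bases, the median difference from WT was 1.03 for line D7 and 1.00 for line C2, and HPL differed from it by -0.49 and -0.30. For the 4307 genes of 1200 to 1799 bases, the class of ADH2 with 1512 bases, the median was 0.58 for line D7 and 0.50 for line C2, and ADH2 differed from it by -0.22 and 0.12. The 306 genes of that class whose mean reached 100 RPKM had medians of -0.00056 for line D7 and -0.075 for line C2. Beside these abundant genes ADH2 was on the high side, with 209 of them lower in line D7 and 234 lower in line C2.

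With the trend of each library with gene length removed, the direction of all 5 group differences turned round. The log2 fold changes were -0.12 for LOXA, -0.88 for LOXB, -0.71 for LOXC, -0.29 for HPL and -0.067 for ADH2, with standard errors of 0.28 to 0.59 and limma adjusted p-values of 0.31 to 0.92. The same correction, chosen after seeing the data, in line D7 alone gave differences from the WT mean of -0.96 for LOXA, -1.46 for LOXB and -1.55 for LOXC. For these the limma adjusted p was 0.50, 0.49 and 0.49 in a fit without line C2, which assumes that the lone library of line D7 varies like the wild type. In line C2 alone the corrected differences were 0.72 for LOXA, -0.30 for LOXB and 0.13 for LOXC. With median-of-ratios scaling, which gave a median of -0.02 over all genes in place of 0.49, the log2 fold changes were 0.64 for LOXA, -0.10 for LOXB, 0.07 for LOXC, 0.03 for HPL and -0.12 for ADH2.

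**Figure D5:**
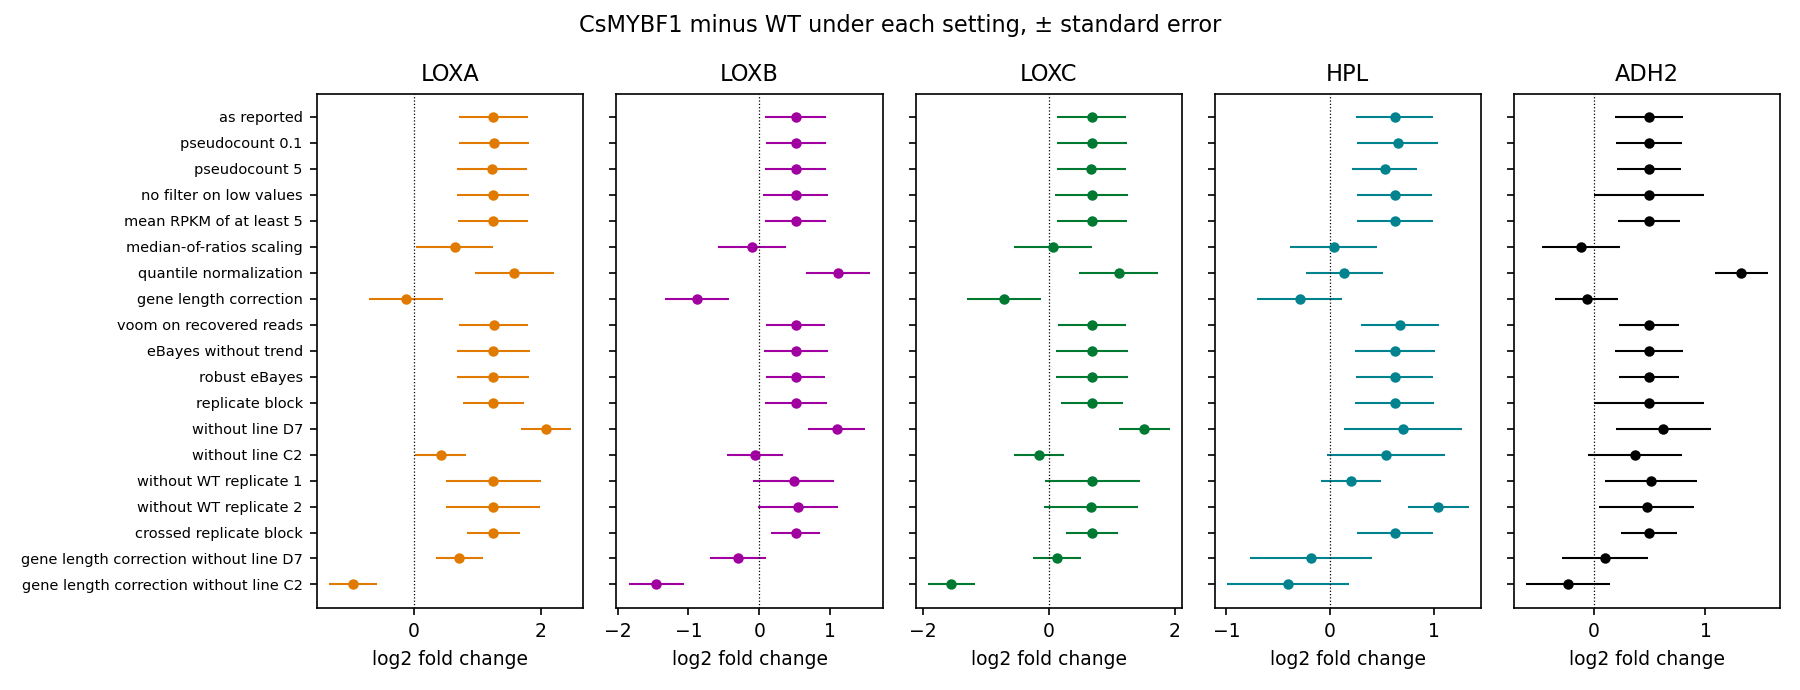
Log2 fold change of CsMYBF1 over WT for the 5 genes (horizontal axes, points with ± 1 standard error) under each setting, with the reported fit in the top row. Under 0 of the 18 other settings did any of the 5 genes pass the adjusted threshold, but several of these settings called almost no gene of the whole table. For the lipoxygenase genes the value without line D7 (2.09, 1.09 and 1.52 for LOXA, LOXB and LOXC) lies right of that without line C2 (0.42, -0.060 and -0.15).

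The order of the levels was the same in all 4 libraries: ADH2, LOXB, LOXC, LOXA and HPL from high to low. ADH2 had 7.07 times the RPKM of LOXB in line D7 and 3.79 times in line C2, against 5.45 and 5.09 times in WT. LOXB had 2.12 times the RPKM of LOXC in line D7 and 1.48 times in line C2, against 1.94 and 2.04 times in WT. LOXC and LOXA were the closest pair, at 1.11 times in both lines, against 1.66 and 1.64 times in WT. Taken as group means with their SD, neighbours in this order were separated in WT, whereas in the CsMYBF1 group the SDs of LOXB, LOXC and LOXA overlapped because line C2 was high for all 3.

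Likeness to other genes was measured as the Euclidean distance of log2(RPKM + 1) over the 4 libraries, among all genes tested. Within a distance of 0.5 there were 14 genes for HPL, 1 for ADH2 and 0 for each lipoxygenase gene. The gene nearest to ADH2 was Solyc09g089580.2 (chromosome 9) at a distance of 0.46, with 2953 RPKM for line D7, 3225 RPKM for line C2 and 3123 and 2739 RPKM for WT. The gene nearest to LOXB was Solyc04g080960.2 (chromosome 4) at a distance of 0.55, with 560 RPKM for line D7, 986 RPKM for line C2 and 604 and 444 RPKM for WT. When each gene was centred on its own mean, so that only the pattern counted, 48 genes lay within 0.5 of LOXA, 175 of LOXB, 42 of LOXC, 409 of HPL and 2106 of ADH2.

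Rows with IDs next to the 5 genes, up to 30 ID units away on the same chromosome, did not share the pattern of the lipoxygenase genes as a rule. Of 30 such rows, 4 were at 0 in all libraries and 14 were tested. Among the 14 tested rows 5 were called higher and 2 lower (limma, adjusted p below 0.05), where all genes gave 18.8% and 2.09%. The 5 higher rows were 2955 to 6164 bases long, and long genes lay higher in both lines, as given above. The 2 lower rows were 608 and 654 bases long, and no trend of genes this short is given here. The log2 fold changes of the 5 higher rows were 1.42 to 2.18, and -0.095 to 0.78 after the gene length correction. Those of the 2 lower rows were -1.15 and -1.22, and -1.05 and -1.14 after it. After the gene length correction 0 of these 7 calls passed, but that fit called only 18 of all 16876 genes higher and 0 lower. A count of 0 was thus nearly fixed there, and the part of length in these calls was not tested. At least 2-fold above line D7 in line C2 was 1 tested row, where all genes gave 5.53%. This was Solyc01g006510.2 beside LOXC, with 22.8 RPKM for line D7, 47.8 RPKM for line C2 and 25.3 and 15.6 RPKM for WT (log2 fold change 0.70, limma adjusted p = 0.28). A neighbour of LOXB, Solyc01g099160.2, was lower in line C2 than in line D7. It had 91.5 RPKM for line D7, 39.3 RPKM for line C2 and 13.0 and 12.3 RPKM for WT, and rose with a log2 fold change of 2.16 (limma, adjusted p = 0.032), against 0.78 after the length correction (adjusted p = 0.35). Both rows were singled out after their values were seen, and the table does not name them. In the RefSeq table the lipoxygenase gene TomloxE stands near LOXB with 2 protein-coding genes between them, and loxF stands near loxC with 1 between them, but no Solyc ID is given for either. The rows next to HPL held 2 genes above its level. Solyc07g049710.2 fell, with 61.1 RPKM for line D7, 47.6 RPKM for line C2 and 116 and 139 RPKM for WT (log2 fold change -1.22, limma adjusted p = 0.038), and had -1.14 after the length correction (adjusted p = 0.12). Solyc07g049720.2 had 36.0 RPKM for line D7, 53.6 RPKM for line C2 and 20.6 and 11.9 RPKM for WT, and rose with a log2 fold change of 1.42 (limma, adjusted p = 0.0496), against 0.017 after the length correction (adjusted p = 0.98).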

How the data were processed

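Poly(A)-enriched fruit RNA was sequenced in 4 libraries, 2 with CsMYBF1 and 2 wild type, and groups were read from the sample descriptions. The authors deposited RPKM, 1 column per library. The submitters' processing notes list HTSeq. The aligner, the genome build and the rule for reads that fit several genes are not given in the sources. Per the labels' protocols, no step marks the strand, so reads of a gene and its antisense partner cannot be told apart.

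Library totals, gene lengths and reads were recovered from the steps of the RPKM values (lengths from 60 to 20000 bases, tolerance 0.001 reads), which solved 24420 of 24422 genes above 0. With deliberately wrong totals 8.0% of 2000 genes were solved. The totals were 15227619 reads in line D7 and 12916160 in line C2, against 21403774 and 13101910 in wild type.

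The CsMYBF1 and WT groups were set against each other on log2(RPKM + 1) in R 4.3.3 with limma 3.58.1 (lmFit, eBayes with trend), where the mean RPKM of a gene reached 1. P-values were adjusted by Benjamini-Hochberg across the genes tested, with calls made below 0.05. This scale understates changes of low genes. All 5 genes are named. Nearest genes were printed for the 2 most abundant of them, and neighbouring IDs where their level was above that of the gene. Neighbours of LOXB and LOXC that the text names were picked after their values were seen. Alternatives were other pseudocounts, filters, scalings and eBayes settings, voom, a loess correction for gene length (span 0.3), a replicate block and leaving out each library. The crossed block and the length correction in single lines were added after seeing the data. The fits and the recovery were tested on simulated data. The genes, lists and tests were chosen with earlier results of these data known. Of 41476 genes in the RefSeq table, 0 carry a Solyc ID of the deposited table, so other genes of the pathway are not described. No promoter or protein sequence was used here.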

Additional observations from a re-analysis of the deposited data

Results flagged for a closer look

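For LOXB and LOXC the lines lay, in RPKM, on opposite sides of the wild-type libraries, which both lines share as their control. LOXB had a log2(RPKM + 1) difference from the WT mean of 1.09 in line C2 and -0.060 in line D7. LOXC had a difference of 1.52 in line C2 and -0.15 in line D7. In both cases line C2 lay above both WT libraries and line D7 below both, which held for 1.42% of all genes tested, while the opposite arrangement held for 3.61%. For LOXB the gap of line D7 to the WT mean was about as large as the log2 difference of 0.057 between the WT libraries. The arrangement depended on the scaling. The RPKM of all genes summed to 840841 for line D7 and 818375 for line C2, against 1.06485e+06 and 1.12154e+06 in WT. After the gene length correction LOXB lay below the WT mean in both lines, by -1.46 in line D7 and -0.30 in line C2. LOXC then had -1.55 in line D7 and 0.13 in line C2. Each line is 1 library, so the difference between the lines was not tested.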

How the results depend on the processing

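None of the 5 genes passed the adjusted threshold under any of the 18 alternatives, so the count of genes called stayed at 0 in both directions. Several alternatives called almost no gene of the whole table, so a count of 0 of 5 was nearly fixed there. They were the fit without a filter (11 higher), quantile normalization (17), the gene length correction (18) and the replicate block (24). Most fits that lacked 1 library likewise called few genes. The length-corrected fits without a line called 0 genes of the whole table, so their count of 0 says nothing about these 5. The lowest limma adjusted p was 0.063, for LOXA with the crossed replicate block. All 5 log2 fold changes were above 0 in the fit reported. With the gene length correction they were -0.12 for LOXA, -0.88 for LOXB, -0.71 for LOXC, -0.29 for HPL and -0.067 for ADH2. With that correction and without line C2 they were -0.96, -1.46, -1.55, -0.41 and -0.23 in the same order. With that correction and without line D7, LOXB was at -0.30 and HPL at -0.18. Median-of-ratios scaling turned LOXB to -0.10 and ADH2 to -0.12, and leaving out line C2 turned LOXB to -0.060 and LOXC to -0.15. The cause was not tested. With each library left out once, the log2 fold change ranged from 0.42 to 2.09 for LOXA, -0.060 to 1.09 for LOXB, -0.15 to 1.52 for LOXC, 0.20 to 1.04 for HPL and 0.36 to 0.62 for ADH2. The CsMYBF1 minus WT difference in lipoxygenase share ranged from 5.57 to 9.83 percentage points for LOXA, -11.6 to -2.60 for LOXB and -2.97 to 1.75 for LOXC. Replicate numbers mark no shared plant or day in the labels, and the deviations of libraries that share a number had a correlation of -0.16 over genes. With the replicate block 24 genes of the whole table were called higher and 0 lower, with the crossed block 4071 and 816, and 0 of the 5 genes in either. At an unadjusted p below 0.05 (limma), 1 of the 5 genes was higher and 0 lower with either block. All genes gave 4947 higher and 956 lower with the replicate block, and 6078 and 1589 with the crossed block. Quantile normalization also gave 1 of the 5 higher and 0 lower at that level, where all genes gave 3045 and 2563. These counts are from fits that kept all libraries. Some of the 5 genes also reached that level in fits that lacked 1 library, some as higher and, with the length correction without line C2, some as lower. Such fits leave 1 library in a group, so their counts at that level are not given. The LOXA log2 fold change with the replicate block was 1.25 (standard error 0.48, limma adjusted p = 0.13). Calls over the whole table, 3179 higher and 352 lower, depended on the setting: 11 genes were higher and 0 lower without a filter, 459 and 718 under median-of-ratios scaling, 17 and 0 under quantile normalization, and 18 and 0 after the gene length correction. Fits without the length correction that lacked 1 library called 6 to 3365 genes higher and 0 to 451 lower. The lines, with 1 library each, have no replicate check at any depth.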
